A study of Rattus norvegicus with 48 samples.

Results

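The cluster of miR-362, miR-532, miR-500 and miR-501 was followed in rat plasma through 6 mature miRNAs, rno-miR-532-5p, rno-miR-532-3p, rno-miR-362-5p, rno-miR-362-3p, rno-miR-501-3p and rno-miR-500-3p, out of 645 mature miRNAs with deposited counts. The 6 were chosen by name and by their place in 1 genomic cluster, with their levels over time and their arm ratios in these counts already known. The choice had no threshold. Levels, changes over time and arm ratios are therefore given as a description, and calls among the 6 are set beside the calls among all miRNAs with nothing read from that comparison.

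The 12 animals were male rats, 12 weeks old, of a strain given as Sprague-Dawley in the study's methods and as Wistar in its summary, each with a circular defect of 8 mm drilled into the calvaria. The 6 strong and the 6 weak regenerators were the animals with the most and the least new bone by microcomputed tomography at the end of the experiment. Defects were left empty, or filled with a collagen-hydroxyapatite (CHA) scaffold alone, with plasmids coding for BMP2 and miR-590-5p, or with extracellular vesicles of mesenchymal stromal cells, and these treatments were not balanced between the groups, since rats with the scaffold alone were all strong regenerators. Treatment did not enter the tests and its part in them was not tested. Plasma from the tail vein was sequenced before surgery (baseline) and after 1, 4 and 8 weeks, which gave 48 samples, 6 per group and time point. Baseline samples carry no group in the labels and were assigned by animal. Levels are given in RPM, the reads of a miRNA per 1000000 miRNA reads of the sample, and total miRNA counts ranged from 393259 to 1586398.

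The week 8 libraries stood apart from the others. Per 1000 miRNA reads, the 12 samples of week 8 held 91.1 to 144 reads of UniSp2, an RNA spike-in added to every extraction, and the 12 baseline samples 23.4 to 41.8. All directions below are relative to the other miRNAs of a library, and at week 8 those of 5 of the 6 members turn from higher to lower when counts are scaled to UniSp2 reads. Time after surgery, age of the rat and day of sampling cannot be told apart. In the order of the deposited samples, the 12 of week 8 follow all others, and whether they were prepared separately is not stated. A difference in handling cannot be told apart from time at week 8. In plasma, fewer cells of a type and less RNA per cell cannot be told apart either. The summed level of 5 miRNAs of leukocytes (miR-142-3p, miR-142-5p, miR-150-5p, miR-155-5p and miR-146a-5p) had a median of 32741 RPM at baseline and 12468 RPM at week 8, and was lower at week 8 in 11 of 12 rats. Its largest part was miR-150-5p, with a mean of 17187 RPM over all samples. The 5 did not all change alike, since the log2 ratio of miR-142-5p over miR-142-3p reads changed by -2.40 from baseline to week 8. The summed level of 5 miRNAs of red blood cells (miR-451-5p, miR-486, miR-144-3p, miR-144-5p and miR-16-5p) had a median of 260833 RPM at baseline and 322997 RPM at week 8. That of 4 miRNAs of platelets (miR-223-3p, miR-126a-3p, miR-191a-5p and miR-21-5p) had medians of 118746 and 95954 RPM. That of 4 miRNAs of liver had medians of 10095 and 4630 RPM and was lower at week 8 in 11 of 12 rats, and that of 4 miRNAs of muscle 1375 and 2168 RPM. None of the 14 blood cell markers was at 0 in any sample, and the part of blood cells, liver and muscle in the results below was not tested.

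MicroRNAs are cut from hairpin precursors by Drosha and Dicer. Each hairpin gives a 5p and a 3p arm, of which one is usually kept in an Argonaute protein while the other is degraded, and bases 2 to 8 of the kept arm, the seed, pair with target mRNAs. Hairpins of a cluster lie close together on a chromosome and can come from 1 primary transcript, so their levels can share a promoter and still differ after processing. In plasma, miRNAs circulate in vesicles or bound to protein, and much of the total comes from blood cells. Of the members, miR-362-5p is known to target CYLD, an inhibitor of NF-kappaB signalling, miR-501-3p the glutamate receptor subunit GluA1, and miR-532-3p the apoptosis repressor ARC.

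In RefSeq (GRCr8), the hairpins lay on the plus strand of chromosome X in the order Mir532, Mir188, Mir362, Mir501 and Mir500, over 11542 bases and all within the bounds of the chloride channel gene Clcn5. Gaps between neighbours were 321, 6820, 639 and 3374 bases. The table held the mature sequences of 5 of the 6 members. These are shown 5′ to 3′ with the seed in capitals, since the seed sets which members can share targets.
rno-miR-532-5p, chrX:17919195-17919216: cAUGCCUUgaguguaggacugu
rno-miR-532-3p, chrX:17919232-17919253: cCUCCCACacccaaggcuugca
rno-miR-362-3p, chrX:17926526-17926547: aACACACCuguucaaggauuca
rno-miR-501-3p, chrX:17927239-17927261: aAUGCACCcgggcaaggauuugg
rno-miR-500-3p, chrX:17930695-17930716: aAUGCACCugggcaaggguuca

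miR-501-3p and miR-500-3p have the same seed and differed at 4 of the first 22 bases, C9U, A18G, U21C and G22A, with the base of miR-501-3p first and positions counted from the 5′ end. Only 1 of the 4 lies within the first 17 bases, the shortest read the authors kept, so short reads of these 2 miRNAs are separated by 1 base and their split is uncertain. miR-362-3p differed from miR-500-3p at 5 bases, 2 of them in the seed (C3U and A4G, with miR-362-3p first), and therefore has another seed. Outside the cluster, the 693 mature miRNAs of the table held 1 miRNA with the seed of miR-532-5p, miR-511-5p, and 1 with the seed of miR-362-3p, miR-329-3p. Both were rare in plasma, with means of 2.21 and 1.83 RPM.

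The hairpin Mir532 (chrX:17919185-17919263) carries both arms whose reads moved in opposite directions, and is shown with the arms in capitals.
Mir532: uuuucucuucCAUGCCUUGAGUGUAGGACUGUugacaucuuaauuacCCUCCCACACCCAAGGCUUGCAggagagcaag

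All 6 members had reads in each of the 48 samples. miR-532-5p was the most abundant, with a mean of 983 RPM and rank 75 of all miRNAs, followed by miR-362-3p with 486 RPM, miR-500-3p with 221 RPM, miR-501-3p with 122 RPM, miR-532-3p with 38.2 RPM and miR-362-5p with 14.6 RPM. All are 22 or 23 bases long where the sequence was at hand, and ligation efficiency can differ between sequences, so this order is one of reads. miR-532-5p took 52.0% of the reads of the 6 members, pooled over the 48 samples, and miR-362-3p 26.1%. The kept arm differed between neighbouring hairpins, since the 5p arm held most reads of miR-532 and the 3p arm most reads of miR-362, miR-500 and miR-501. The other arms miR-500-5p and miR-501-5p had reads in 14 and 29 of the 48 samples and means of 0.72 and 1.24 RPM. miR-188-5p, from the hairpin between Mir532 and Mir362, had a mean of 10.6 RPM and miR-188-3p was not listed. The counts behind the 2 rarest members were small, between 2 and 107 reads per sample for miR-532-3p and between 2 and 20 for miR-362-5p.

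The summed level of the 6 members was similar up to week 4 and higher in RPM at week 8. The lowest, median and highest of the 12 samples were 1348, 1558 and 1828 RPM before surgery and 1257, 1648 and 2468 RPM after 1 week. After 4 weeks they were 1246, 1552 and 2199 RPM, and after 8 weeks 1857, 2614 and 3385 RPM. The sum was higher at week 8 than at baseline in 12 of 12 rats, and the 2 sets of samples did not overlap. At weeks 1 and 4 it was higher than at baseline in 8 and 6 of 12 rats.

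**Figure D1:**
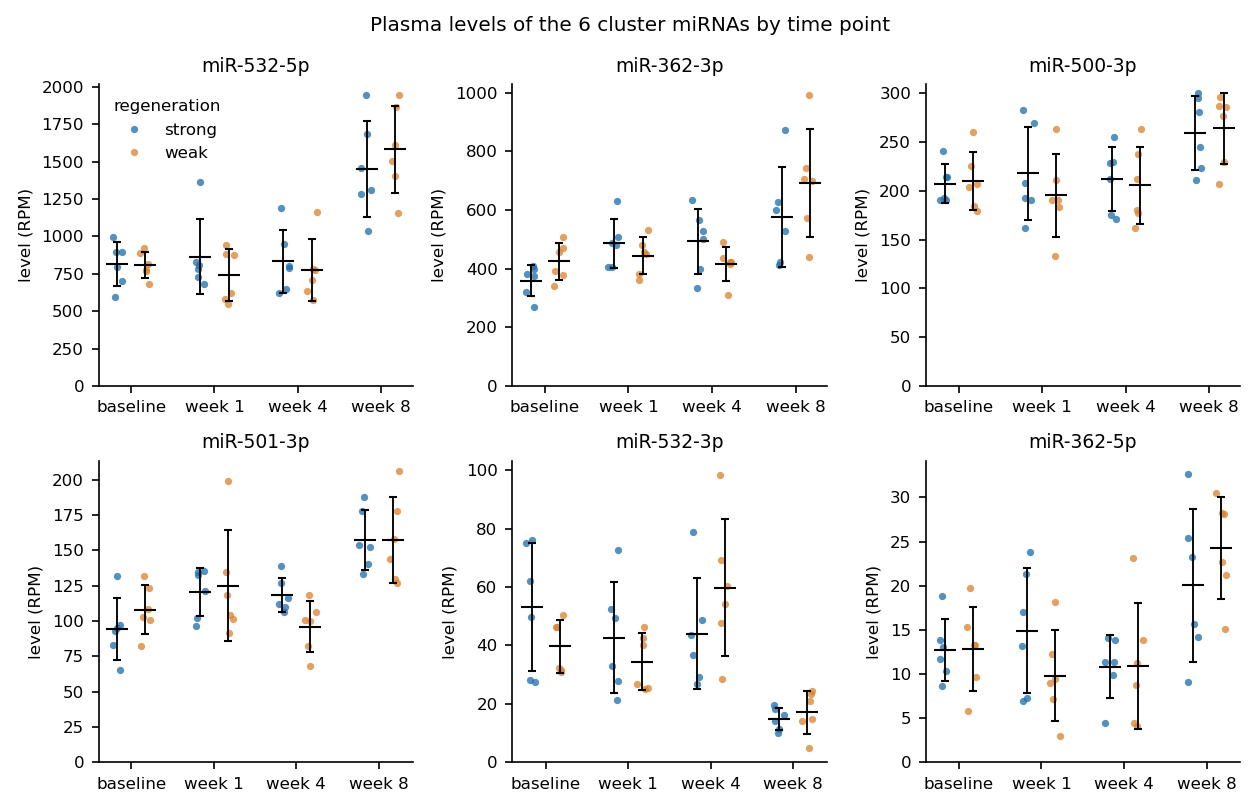
Levels of the 6 cluster miRNAs in RPM (vertical axes, linear from 0) at baseline and weeks 1, 4 and 8, with 1 point per rat, strong regenerators in blue and weak regenerators in orange, and black bars for the mean ± SD of 6 rats. miR-532-5p at week 8 lies above 1036 RPM in all 12 rats and miR-532-3p below 24.4 RPM, while strong and weak regenerators overlap in every panel and time point.

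miR-532-5p rose at week 8 relative to the other miRNAs. It had a lowest, median and highest level of 597, 806 and 997 RPM at baseline, 548, 793 and 1366 RPM after 1 week, 578, 776 and 1186 RPM after 4 weeks, and 1036, 1480 and 1945 RPM after 8 weeks. The first 3 time points overlapped, whereas all 12 samples of week 8 lay above all 12 baseline samples. Week 8 did overlap weeks 1 and 4, and 11 of 12 rats were higher at week 8 than at week 4. In edgeR's fit across all miRNAs, the level of miR-532-5p at week 8 was 1.97-fold that of baseline, a log2 fold change of 0.98 (standard error 0.12).

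The other arm of the same hairpin, miR-532-3p, fell at week 8 in either scaling. Its lowest, median and highest levels were 27.7, 46.4 and 76.2 RPM at baseline, 21.3, 36.6 and 72.6 RPM after 1 week, 26.8, 48.3 and 98.4 RPM after 4 weeks, and 5.09, 15.6 and 24.4 RPM after 8 weeks. All 12 rats had less at week 8 than at baseline and the samples did not overlap. The log2 fold change was -1.44 (standard error 0.25), or 0.37-fold, on a median of 10 reads per sample at week 8 and 39.5 at baseline. Among 310 miRNAs with a mean of at least 10 RPM, 43 (13.9%) had week 8 samples that did not overlap the baseline samples, 13 higher and 30 lower, and 2 of the 6 members were among them.

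miR-362-3p was also higher at week 8 relative to the other miRNAs. It ranged from 270 to 509 RPM with a median of 388 RPM at baseline, from 363 to 630 RPM with a median of 469 RPM after 1 week, from 310 to 633 RPM with a median of 428 RPM after 4 weeks, and from 411 to 992 RPM with a median of 612 RPM after 8 weeks. The samples of all time points overlapped, and 10, 8 and 11 of 12 rats were above their own baseline at weeks 1, 4 and 8. The log2 fold change at week 8 was 0.78 (standard error 0.13). Its other arm, miR-362-5p, had medians of 13.2, 10.9, 11.3 and 22.96 RPM at baseline and weeks 1, 4 and 8, was above baseline in 12 of 12 rats at week 8, and had a log2 fold change of 0.83 (standard error 0.27) at week 8.

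The pair with a shared seed also rose at week 8 relative to the other miRNAs, by unequal amounts. miR-501-3p ranged from 65.5 to 132 RPM (median 99.1) at baseline, from 91.5 to 199 RPM (median 120) after 1 week, from 68.0 to 139 RPM (median 108) after 4 weeks, and from 127 to 206 RPM (median 153) after 8 weeks. miR-500-3p ranged from 179 to 260 RPM (median 206) at baseline, from 133 to 283 RPM (median 192) after 1 week, from 162 to 263 RPM (median 212) after 4 weeks, and from 207 to 301 RPM (median 279) after 8 weeks. Both were higher at week 8 than at baseline in 12 of 12 rats, with ranges that overlapped. The log2 fold change was 0.69 (standard error 0.14) for miR-501-3p and 0.40 (standard error 0.11) for miR-500-3p.

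At week 8, all 6 members passed an FDR of 0.05 against baseline, 5 higher and 1 lower. Of the 595 miRNAs tested, 255 (42.9%) were called, 88 (14.8%) of them higher and 167 (28.1%) lower, and the median log2 fold change was 0.74 over the 6 members and -0.12 over the 309 miRNAs with a normalised mean of at least 10. These directions are relative to the other miRNAs of a library and not to the plasma volume. Scaled to UniSp2 reads, the median of those 309 miRNAs became -2.03 and the 5 members that were higher became lower, with log2 fold changes from -0.95 for miR-532-5p to -1.54 for miR-500-3p, while miR-532-3p stayed lower with -3.32. In both scalings miR-532-5p had the highest value of the 6 and miR-532-3p the lowest.

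**Figure D2:**
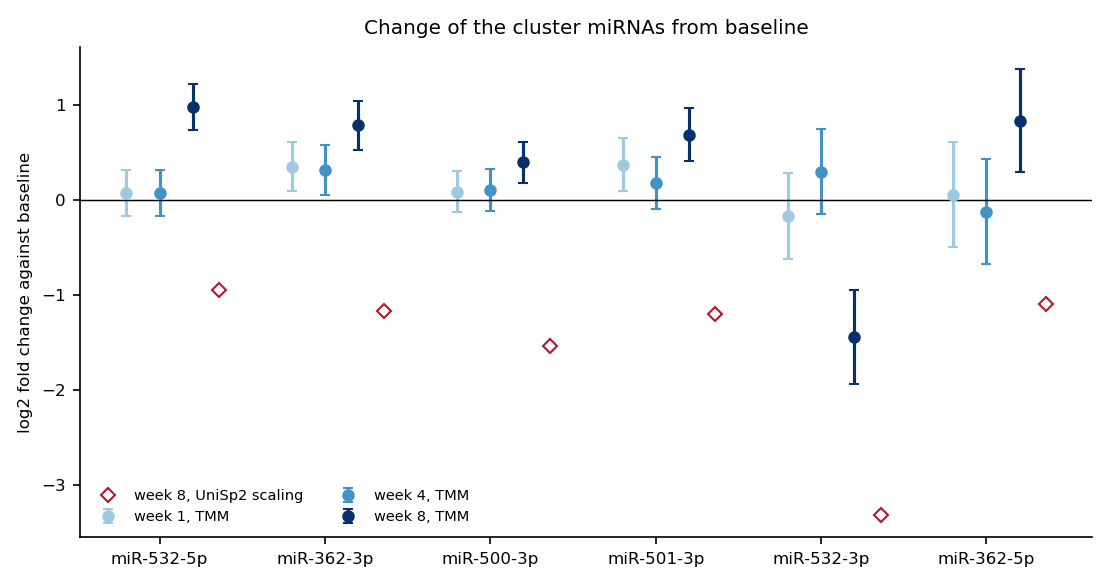
Log2 fold change of each cluster miRNA against baseline (vertical axis) at weeks 1, 4 and 8 after TMM normalization (filled circles with 95% confidence intervals, 12 rats at each time point) and at week 8 after scaling to UniSp2 reads (open diamonds, no interval drawn). The circles of week 8 lie above 0 except that of miR-532-3p, at -1.44, whereas all 6 diamonds lie below 0.

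At week 1, 2 of the 5 members tested were called, both higher, with log2 fold changes of 0.35 (standard error 0.13) for miR-362-3p and 0.37 (standard error 0.14) for miR-501-3p. Of the 257 miRNAs that the filter on mean abundance left for this test, 52 (20.2%) were called and 32 (12.5%) were called higher, and miR-362-5p was below the filter. Both FDRs lay just under the threshold, at 0.0483 and 0.0484, and leaving out any 1 of the 12 rats left at most 1 of the 2 calls, as did every other setting except RLE normalization and DESeq2. With the rat as a block in the model, neither was called. At week 4, no member was called, against 27 of 645 miRNAs (4.19%), and log2 fold changes lay between -0.12 and 0.31. The highest was that of miR-362-3p (FDR 0.178), 1.24-fold in level, and it was the 1 member with an unadjusted p under 0.05 by edgeR, beside 115 of 645 miRNAs (17.8%). Baseline samples are shared by these 3 comparisons.

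After week 1, the calls of the cluster lay between weeks 4 and 8. No member was called for week 4 against week 1, where 1 of 645 miRNAs (0.155%) was. All 6 were called for week 8 against week 4, beside 213 of 557 miRNAs (38.2%). The log2 fold changes from week 4 to week 8 were 0.91 (standard error 0.12) for miR-532-5p, 0.96 (standard error 0.27) for miR-362-5p, 0.51 (standard error 0.14) for miR-501-3p, 0.47 (standard error 0.13) for miR-362-3p and 0.29 (standard error 0.11) for miR-500-3p. miR-532-3p changed by -1.74 (standard error 0.25), and its 12 samples of week 8 did not overlap those of week 4. The call of miR-500-3p was lost without rat 21 (FDR 0.0702) or without rat 25 (FDR 0.0802), and with UniSp2 scaling the 5 positive values became negative, from -0.51 to -1.25, and miR-362-5p was no longer called (FDR 0.106).

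Of the rarer miRNAs of the cluster, none was called at week 8 against baseline. miR-188-5p had medians of 8.43 RPM at baseline and 12.8 RPM at week 8, and a log2 fold change of 0.32 (standard error 0.29). miR-500-5p was called higher at week 8 than at week 4 (log2 fold change 1.87, standard error 0.74, FDR 0.0397 by edgeR), on at most 5 reads per sample.

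Ratios of 2 miRNAs within a library do not depend on how the library is scaled, but can still differ with how it was prepared. The 5p arm of miR-532 had 11.8 to 27.6 reads per read of the 3p arm at baseline (median 18.9), 10.7 to 41.5 after 1 week (median 20.3), 8.23 to 44.2 after 4 weeks (median 15.5) and 57.5 to 382 after 8 weeks (median 91.9). The highest value of week 8 came from the sample with 2 reads of the 3p arm. On the log2 scale with 1 read added to each arm, the ratio was higher by 2.30 ± 0.64 (SD, n = 12 rats) at week 8 than at baseline, in 12 of 12 rats, and no sample of week 8 overlapped one of baseline. At weeks 1 and 4 the mean differences were 0.22 ± 0.56 and -0.17 ± 1.02 (SD, n = 12), with 8 and 6 of 12 rats higher.

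The arm ratio of miR-362 differed between week 8 and baseline by less than the spread between rats. Its 3p arm had medians of 33.1, 43.0, 42.0 and 29.6 reads per read of the 5p arm at baseline and weeks 1, 4 and 8. The log2 ratio of 5p over 3p reads differed from baseline by -0.39 ± 0.87 after 1 week, -0.50 ± 0.77 after 4 weeks and 0.08 ± 0.52 after 8 weeks (SD, n = 12), with 8, 8 and 5 of 12 rats lower. At week 4, it was lower than baseline in 6 of 6 strong and 2 of 6 weak regenerators. This split was not tested, and it rests on 5 to 20 reads of miR-362-5p per sample at baseline and 2 to 20 at week 4.

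**Figure D3:**
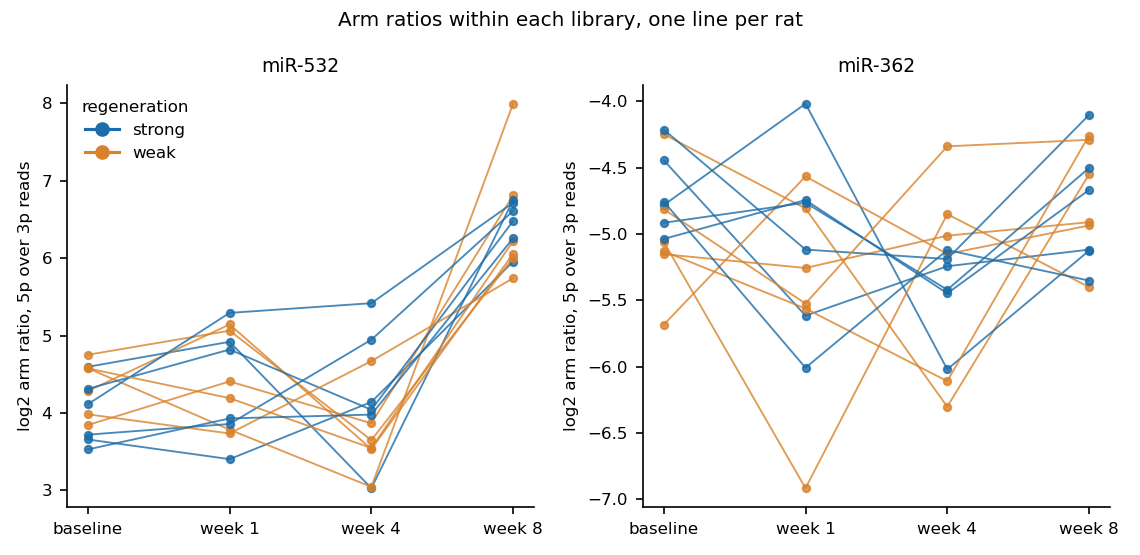
Log2 ratio of 5p over 3p reads of miR-532 (left) and miR-362 (right) in each library at baseline and weeks 1, 4 and 8, with 1 line per rat, strong regenerators in blue and weak regenerators in orange; the vertical axes differ. All 12 lines of miR-532 end above 5.74 at week 8, above every baseline value, whereas those of miR-362 at week 8 span -5.40 to -4.10, within or near their baseline range.

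Other hairpins served as a background for the arm ratios. Among 146 hairpins whose arms both had a mean of 1 RPM or more, the exact paired permutation test over the 12 rats (two-sided, Benjamini-Hochberg adjusted over the hairpins) called 71 (48.6%) at week 8, 30 (20.5%) with a higher and 41 with a lower ratio of 5p over 3p reads. The increase of miR-532 was rank 3 of 146, and miR-362 was rank 58 and not called. No hairpin (0%) was called at week 1, at week 4 or between strong and weak regenerators, where 27, 8 and 10 hairpins had an unadjusted p under 0.05 by the same exact tests. The lower ratio of miR-362 at week 4 was among the 8 (exact paired permutation test, unadjusted p = 0.0435, adjusted p = 0.793).

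**Figure D4:**
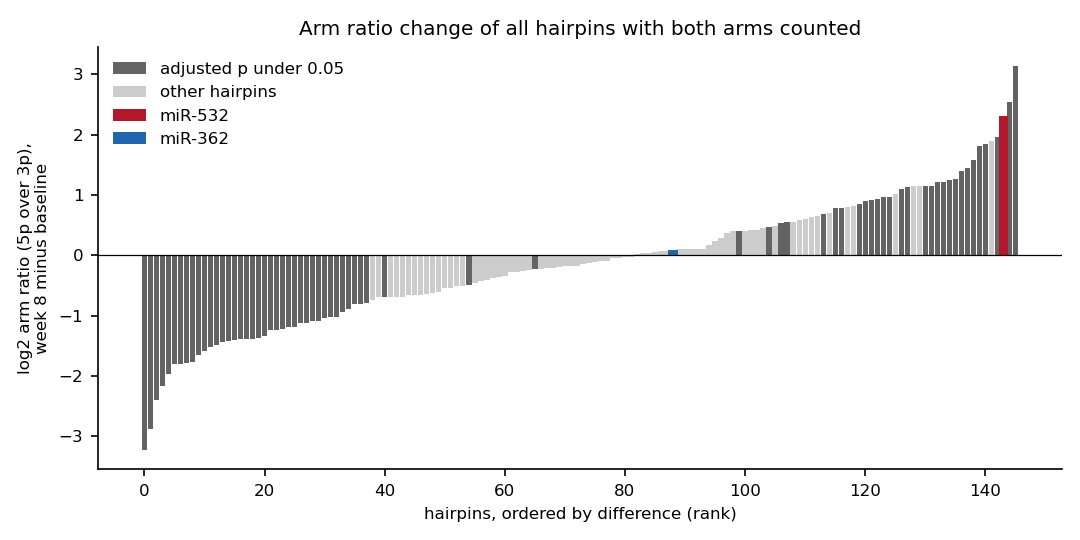
Difference in the log2 ratio of 5p over 3p reads between week 8 and baseline (vertical axis, mean over 12 rats) for 146 hairpins ordered by size, with hairpins at an adjusted p under 0.05 in dark grey, others in light grey, miR-532 in red and miR-362 in blue. miR-532 at 2.30 is the third bar from the right end and miR-362 at 0.08 is near 0.

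The median share of miR-532-5p in the reads of the cluster was highest at week 8, but its ratio to single members did not rise in every rat. Its share of the reads of the 6 members had medians of 51.4%, 47.9%, 48.3% and 57.9% at baseline and weeks 1, 4 and 8, while that of miR-532-3p was 2.88%, 2.37%, 3.04% and 0.63%. There were 4.04 reads of miR-532-5p per read of miR-500-3p at baseline and 5.67 at week 8 (medians), higher in 12 of 12 rats. Against miR-362-3p the ratio was 1.95 at baseline and 2.44 at week 8, but higher in only 6 of 12 rats. Within rats, its median change there was 1.09-fold. Against miR-501-3p it was higher in 9 of 12 rats, with a median change of 1.17-fold. miR-501-3p had medians of 0.49, 0.63, 0.58 and 0.63 reads per read of its seed partner miR-500-3p at the 4 time points, and was higher at week 8 in 10 of 12 rats.

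Strong and weak regenerators were compared over all time points and at each of them, to ask whether cluster miRNAs differ with healing. No member was called over all time points, where none of 645 miRNAs (0%) was called and 64 had an unadjusted p under 0.05 by edgeR, none of the 6 members among them. The study itself reports 2 miRNAs outside the cluster, miR-133a-3p and miR-375-3p, as differing between the groups over all time points. Without rat 2, 2 miRNAs were called here, none of them a member. For the 6 members, the differences of strong against weak regenerators, as log2 fold changes, lay between -0.10 for miR-362-3p (95% confidence interval -0.29 to 0.08) and 0.00 for miR-532-3p (-0.33 to 0.34). By time point, no member was called by edgeR or DESeq2, beside 0% of miRNAs at baseline, week 1 and week 4, and 0.155% at week 8. An unadjusted p under 0.05 by edgeR was found for 1 member at week 8 and for none at the other time points, beside 5.43% of miRNAs at week 8 and 6.51%, 4.96% and 3.88% at baseline, week 1 and week 4. The lowest unadjusted p was that of miR-362-3p at week 8, where levels were 411 to 874 RPM (median 564) in strong and 440 to 992 RPM (median 704) in weak regenerators, with a log2 fold change of -0.43 (standard error 0.18, unadjusted p = 0.0185, FDR 0.747 by edgeR). These ranges overlapped.

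The change from baseline was not called as different between strong and weak regenerators for any member at week 1, 4 or 8 by edgeR or DESeq2 (0% of 645 miRNAs at each). The lowest unadjusted p was that of miR-532-3p at week 4, with a difference in log2 fold change of -0.88 (standard error 0.44, unadjusted p = 0.0497, FDR 0.705 by edgeR). At week 8 the differences in log2 fold change lay between -0.73 for miR-532-3p (95% confidence interval -1.70 to 0.24) and 0.10 for miR-501-3p (-0.46 to 0.65). The intervals of miR-532-3p and miR-362-5p (-1.51 to 0.66) include a 2-fold difference. For each arm ratio, the mean over the 4 time points of a rat was compared between the groups, and single time points or changes were not tested. The mean log2 ratio of miR-532 was 4.77 ± 0.39 in strong and 4.73 ± 0.13 in weak regenerators (SD, n = 6 rats each; exact permutation test over rats, two-sided, p = 0.823), and that of miR-362 was -4.99 ± 0.22 and -5.12 ± 0.27 (same exact test, p = 0.383).

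Levels of the members were also set against each other over the 48 samples, on log2(RPM + 1). These correlations are descriptions, since the samples are 4 from each of 12 rats and share library scaling. miR-532-5p and miR-362-3p had a Pearson's r of 0.78, and of 0.69 within time points. miR-532-5p and miR-500-3p had 0.75 and 0.63. The 2 arms of miR-532 had -0.61, which was -0.01 within time points, so that the inverse relation lay between time points. The seed partners miR-501-3p and miR-500-3p had 0.20 over all samples and -0.20 within time points.

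Correlations with miRNAs outside the cluster were taken over all 48 samples and not within time points, so differences between time points enter them. The 3 miRNAs most like miR-532-5p among 303 were miR-425-5p (r = 0.85), miR-21-3p (0.85) and miR-361-3p (0.84). Those most like miR-532-3p were miR-142-5p (0.85), let-7g-5p (0.84) and miR-3559-5p (0.84). miR-362-3p was most like miR-221-3p (0.81), miR-107-3p (0.79) and miR-363-3p (0.79). For miR-501-3p these were miR-19b-3p (0.72), miR-301a-3p (0.71) and miR-93-5p (0.69), for miR-500-3p miR-21-3p (0.74), miR-24-2-5p (0.68) and miR-425-5p (0.68), and for miR-362-5p miR-425-3p (0.52), miR-103-3p (0.51) and miR-21-3p (0.50).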

How the data were processed

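Plasma small RNA of 48 samples was prepared by single-adapter ligation and sequenced. The authors removed adapters with cutadapt 3.3 and mapped reads with Bowtie 1.3.0 and miRDeep2, first against the genome and then against miRBase. They deposited raw counts, not normalised, for 645 miRNAs and 3 spike-ins. The genome build is given differently by the submitters' notes and the methods. The labels give 200 µL of plasma and the methods 80 µL filled up with water.

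Counts were tested with edgeR 4.0.16 (R 4.3.3): TMM, quasi-likelihood F-test in the method of version 3, DESeq2's independent filter on mean abundance and Benjamini-Hochberg adjustment over the miRNAs left, with calls at an FDR under 0.05. Time comparisons used all 48 samples with terms for time point and regeneration group, and group comparisons within time points a fit with 8 groups. No term for the rat entered, so p-values treat the 4 samples of a rat as independent. Same-numbered samples come from the same rat, and their deviations from group means correlated by 0.11 on average (72 pairs; -0.02 over 360 pairs of different rats). Arm ratios, log2((5p + 1)/(3p + 1)), were compared by exact permutation over rats, paired over time, with Python 3.11.15. Spike-ins stayed out of library sizes. Reads are not shown to be separate molecules. Scripts were tested on simulated data.

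Members, marker lists and alternatives were chosen with earlier results of these data known. Named were the members, the other listed miRNAs of the cluster, the 3 outside miRNAs most correlated with each member, and markers beside a result. Sequences came from RefSeq (GRCr8), matched by name for 5 of the 6 members. Bone volumes, histology and the treatment of each rat were not analysed here.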

Additional observations from a re-analysis of the deposited data

Results flagged for a closer look

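In 3 of 64 groups of 6 samples, 1 sample lay apart from the others by Dixon's criterion, where chance gives about 1 in 20 groups. The level of miR-532-5p in rat 21 of the strong regenerators at week 1 was 1366 RPM, from 705 reads, against 681 to 827 RPM in the other 5 rats. The level of miR-532-5p in rat 26 of the weak regenerators at week 4 was 1164 RPM, from 1005 reads, against 578 to 778 RPM in the others. The log2 arm ratio of miR-362 in rat 5 of the strong regenerators at week 4 was -6.02, against -5.45 to -5.12 in the others. Without each of these rats in turn, all 6 members were still called at week 8 against baseline.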

How the results depend on the processing

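Scaling to UniSp2 reads turned the direction of most values. At week 8 against baseline it gave log2 fold changes of -0.95 for miR-532-5p, -1.10 for miR-362-5p, -1.17 for miR-362-3p, -1.21 for miR-501-3p and -1.54 for miR-500-3p, and at week 8 against week 4 of -0.64, -0.51, -1.09, -1.03 and -1.25 in the same order, where miR-362-5p was no longer called. At week 4 against baseline, miR-362-3p became -0.079. The 2 calls at week 1 fell to 0 with library size alone, UniSp2 scaling, no filter, filterByExpr, the quasi-likelihood method of edgeR 4, and miR-500-3p and miR-501-3p summed, to 1 with only the time points compared, and to between 0 and 1 without 1 rat; the cause was not tested. With the replicate block (the rat), 0 members passed at week 1 and 6 at week 8, where miR-532-5p had 0.98 and miR-532-3p -1.44, and the block changed no other count of members called. The unpaired arm tests (no replicate block) kept their side of the threshold. The difference of the miR-532 arm ratio between strong and weak regenerators was 0.04 and lay between -0.081 (without rat 21) and 0.14 (without rat 2) when 1 rat was left out. The other counts and arm ratios kept their direction and side of the threshold, within 1.5 times for counts, under all alternatives run. Counts of a few reads limit miR-532-3p and miR-362-5p.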
